A study of Mus musculus with 10 samples.

Results

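The genes described here are 10 transcription factors that mark naive pluripotency in the mouse, namely Zfp42, Esrrb, Klf2, Klf4, Klf5, Tfcp2l1, Tbx3, Prdm14, Nr0b1 and Nr5a2. They were chosen by symbol from the 54532 genes of the deposited tables, and each symbol matched 1 gene. In epiblast stem cells (EpiSC), 9 of the 10 were lower than in embryonic stem cells (ESC) beyond the spread between libraries. Nr0b1 was not, and 10.1% of all genes tested were lower. The Klf5 call was close to the threshold. When only libraries of wild-type label were used, 2 members passed, and far fewer genes passed in all. The 2 libraries of epiblast-like cells (EpiLC) lay far apart. For 8 of the 9 members with at least 100 counts, the p53-KO-labelled library held 5.35 to 165 times the level of the wild-type-labelled one. At least 2-fold higher there were 11.2% of all genes with such counts.

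RNA sequencing of poly-A RNA was made from 10 libraries of strain 129SV, each with 15862113 to 18814003 counts. EpiSC, stem cells of the post-implantation epiblast, gave 5 libraries: 2 labelled haploid with p53 disrupted (lines haEpi1 and haEpi5), 1 labelled diploid with p53 disrupted, and 2 labelled diploid wild type (1 titled male, and 1 titled fema, taken as female). EpiLC, which cultures pass through on leaving the naive state, gave 1 library labelled p53-KO haploid and 1 labelled wild-type haploid. ESC gave 1 library labelled wild-type haploid and 1 labelled wild-type diploid, and mouse embryonic fibroblasts (MEF) of wild-type diploid label gave 1. The allele that disrupts p53, the age of the embryos, the days of EpiLC induction and the culture media are not given in the sources used here, nor is whether a library came from a single clone. The design text speaks of triplicates, and 10 libraries were analysed. Where nothing says that libraries came from separate cultures, p-values measure only the spread between these samples, which may be technical. The spread inside a cell type also holds differences of line, sex, p53 label and ploidy.

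The labels were checked before the members were read. Trp53, which encodes p53, stood at 50.5 CPM (TMM-normalised counts-per-million) in haEpi1, 61.8 in haEpi5, 2.17 in diploid p53-KO EpiSC and 32.9 in p53-KO EpiLC. It stood at 36.9 CPM in female EpiSC, 199 in male EpiSC, 356 in wild-type EpiLC, 28.5 in haploid ESC, 375 in diploid ESC and 129 in MEF. Its level therefore did not separate the labelled genotypes, and p53-KO or wild type below is what the label says. The Y-linked gene Ddx3y was at 0.63 CPM in the p53-KO EpiLC library and 46.1 CPM in the wild-type EpiLC library, so the pair differs in Y-linked RNA as well as in label. In EpiSC it was at 8.49 CPM in haEpi1, 5.01 in haEpi5, 117 in diploid p53-KO, 5.74 in female and 94.2 in male EpiSC, and MEF had 69.4 CPM, haploid ESC 2.3 CPM and diploid ESC no count. The wild-type EpiLC library was thus the only one of the 5 labelled haploid above 10 CPM, and the design text gives no ploidy for wild-type EpiLC. Its ploidy was not tested, so the match of the EpiLC pair in ploidy rests on the sample label. A set of 5 general pluripotency markers (Pou5f1, Sox2, Sall4, Lin28a and Utf1) summed to 1214 to 1725 CPM in EpiSC, 1845 to 2511 CPM in EpiLC and 1130 to 1907 CPM in ESC, against 6.69 CPM in MEF. A set of 7 post-implantation epiblast markers summed to 1060 to 1915 CPM in EpiSC, 1135 CPM in the p53-KO EpiLC library and 4031 CPM in the wild-type EpiLC library, and 299 to 308 CPM in ESC. Their median was 113 to 161 CPM in EpiSC, 63.8 CPM in p53-KO EpiLC and 156 CPM in wild-type EpiLC. By median the p53-KO EpiLC library was thus below every EpiSC library and the wild-type one inside their range, unlike by sum. The 12 fibroblast markers summed to 418 to 1763 CPM in EpiSC, 118 and 41.5 CPM in p53-KO and wild-type EpiLC, 1028 CPM in haploid ESC and 21.1 CPM in diploid ESC, against 65712 CPM in MEF.

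Naive pluripotency is the state of the pre-implantation epiblast, held in culture by leukaemia inhibitory factor (LIF) acting through the receptor Lifr and the transcription factor STAT3, and by blocking ERK signalling. STAT3 acts on Klf4 and Tfcp2l1, Esrrb is repressed by Tcf7l1 and released by Wnt signalling, and Klf2 protein is lost when ERK is active. As cells move to the post-implantation state, through EpiLC and as EpiSC, this set of factors is shut down while Pou5f1 and Sox2 remain.

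By role the members form several groups. The Krüppel-like zinc finger factors are Klf2 (ENSMUSG00000055148, chromosome 8, 72319033 to 72321656), Klf4 (ENSMUSG00000003032, chromosome 4, 55527143 to 55532466) and Klf5 (ENSMUSG00000005148, chromosome 14, 99298691 to 99315036). They bind a shared CACCC-type motif and can stand in for each other in ESC self-renewal. The orphan nuclear receptors are Esrrb (ENSMUSG00000021255, chromosome 12, 86361117 to 86521628) and Nr5a2 (ENSMUSG00000026398, chromosome 1, 136842571 to 136960448), which bind DNA as monomers. Nr0b1 (ENSMUSG00000025056, chromosome X, 86191764 to 86195947), also called Dax1, lacks the usual DNA-binding domain and acts on other receptors. Zfp42 (ENSMUSG00000051176, chromosome 8, 43295063 to 43306980), also called Rex1, is a zinc finger protein widely used as a reporter of the naive state. Tfcp2l1 (ENSMUSG00000026380, chromosome 1, 118627945 to 118685168) is a CP2-family factor downstream of STAT3. Tbx3 (ENSMUSG00000018604, chromosome 5, 119670669 to 119684724) is a T-box factor that can sustain self-renewal without LIF. Prdm14 (ENSMUSG00000042414, chromosome 1, 13113457 to 13127163) is a PR-domain protein that represses FGF receptor signalling and DNA methyltransferases. Coordinates are those of the deposited tables (mm10). Tbx3 overlaps the antisense gene Tbx3os1, which had 182 counts over the libraries against 12753 for Tbx3, and Tfcp2l1 overlaps 3 small genes of at most 24 counts against 29932. The library kit does not mark strand, so reads of overlapping genes cannot be told apart.

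The starts of Zfp42, the member with the lowest adjusted p in EpiSC against ESC, and of Nr0b1, the member that did not pass there, are shown with the CACCC motif of the Klf factors in capitals, on either strand (CACCC or GGGTG). The windows run from 250 bases before to 50 bases after the RefSeq start on GRCm38.p6, at chr8:43306960-43307259 on the minus strand and chrX:86191525-86191824 on the plus strand, and hold 3 matches each.
Zfp42: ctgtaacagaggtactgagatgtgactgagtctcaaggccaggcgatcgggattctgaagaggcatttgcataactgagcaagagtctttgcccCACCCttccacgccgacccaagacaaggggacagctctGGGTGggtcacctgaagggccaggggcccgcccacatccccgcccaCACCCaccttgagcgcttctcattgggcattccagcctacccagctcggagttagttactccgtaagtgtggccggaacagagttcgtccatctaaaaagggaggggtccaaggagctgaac
Nr0b1: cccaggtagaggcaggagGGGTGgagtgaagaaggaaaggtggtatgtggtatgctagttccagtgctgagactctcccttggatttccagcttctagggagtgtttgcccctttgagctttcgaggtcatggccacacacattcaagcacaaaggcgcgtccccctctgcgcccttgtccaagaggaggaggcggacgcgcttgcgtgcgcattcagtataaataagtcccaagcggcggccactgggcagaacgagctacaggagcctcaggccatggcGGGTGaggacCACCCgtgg

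RefSeq windows were matched for 7 of the 10 members, 9 windows in all. CACCC was present in 7 of the 9 windows, from Esrrb, Klf2, Nr0b1, Nr5a2, Tfcp2l1 and Zfp42, and in 57.5% of all 32851 windows of that length. For Nr5a2 the window at the gene start of the deposited coordinates held no match, and the one inside the gene held 3. Esrrb had matches both at its gene start and in a window inside the gene. The letters AAGGTCA (bound by Esrrb and Nr5a2), TTCCNGGAA (STAT) and CTTTGAA (TCF) were in none of the 9 windows on either strand, and in 4.72%, 1.15% and 5.14% of all windows. These matches describe the letters of the windows only.

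In the Krüppel-like group, Klf2 and Klf4 were low in EpiSC while Klf5 kept a clear level. Klf2 stood at 13.7 CPM in haEpi1, 6.86 in haEpi5, 1.12 in diploid p53-KO EpiSC, 8.53 in female and 1.13 in male EpiSC, at 108 CPM in p53-KO EpiLC and 5.16 in wild-type EpiLC, and at 90.4 CPM in haploid and 214 in diploid ESC. The p53-KO EpiLC library lay inside the ESC range for Klf2 and the wild-type EpiLC library inside the EpiSC range. Klf4 stood at 10, 11.7, 1.98, 5.80 and 2.49 CPM in the same order of EpiSC libraries, at 13.4 CPM in p53-KO EpiLC and 9.87 in wild-type EpiLC, and at 82.7 CPM in haploid and 199 in diploid ESC. Here both EpiLC libraries were close to EpiSC and far below ESC. Klf5 stood at 66.3, 56.5, 35.2, 36.5 and 64.5 CPM in EpiSC, at 258 CPM in p53-KO EpiLC and 27.1 in wild-type EpiLC, and at 241 CPM in haploid and 218 in diploid ESC. For Klf5 the p53-KO EpiLC library was above both ESC libraries, and the wild-type EpiLC library was below every EpiSC library. In MEF the 3 genes were at 32.9, 38.5 and 39.1 CPM (Klf2, Klf4 and Klf5).

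Among the nuclear receptors, Esrrb and Nr5a2 were high in ESC and nearly silent or low in EpiSC, and Nr0b1 followed a pattern of its own. Esrrb stood at 6.88 CPM in haEpi1, 6.63 in haEpi5, 4.84 in diploid p53-KO EpiSC, 10.9 in female and 0.735 in male EpiSC, at 186 CPM in p53-KO EpiLC and 16.8 in wild-type EpiLC, and at 357 CPM in haploid and 735 in diploid ESC. The order EpiSC, EpiLC, ESC held without overlap. Nr5a2 had 3, 2, 9, 5 and 1 counts in those EpiSC libraries, or 0.0566 to 0.558 CPM, against 9.44 CPM in p53-KO EpiLC, 1.36 in wild-type EpiLC, 46.6 in haploid and 90.5 in diploid ESC. Counts of this size carry wide errors, and the 5 EpiSC libraries cannot be ranked for Nr5a2. Nr0b1 stood at 25.3 CPM in haEpi1, 10.5 in haEpi5, 2.05 in diploid p53-KO EpiSC, 58.9 in female and 0.226 in male EpiSC (4 counts), at 121 CPM in p53-KO EpiLC and 9.94 in wild-type EpiLC, and at 27.8 CPM in haploid and 88.5 in diploid ESC. The female EpiSC library therefore lay above the haploid ESC library for Nr0b1, and the p53-KO EpiLC library above both ESC libraries. In MEF, Esrrb and Nr0b1 had 0 counts and Nr5a2 had 1 count.

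The other 4 members had their lowest pluripotent level in an EpiSC library or, for Tbx3, in the wild-type EpiLC library. Zfp42 stood at 1.61 CPM in haEpi1, 2.42 in haEpi5, 1.05 in diploid p53-KO EpiSC, 0.383 in female and 2.09 in male EpiSC, at 142 CPM in p53-KO EpiLC and 26.7 in wild-type EpiLC, and at 181 CPM in haploid and 537 in diploid ESC. Both EpiLC libraries kept Zfp42 well above every EpiSC library. Tfcp2l1 stood at 10.5, 6.68, 7.32, 5.80 and 30.2 CPM in the same EpiSC order, at 132 CPM in p53-KO EpiLC and 8.07 in wild-type EpiLC, and at 509 CPM in haploid and 1020 in diploid ESC. The male EpiSC library was the highest of the EpiSC libraries for Tfcp2l1 and the lowest for Esrrb and Nr0b1. Tbx3 stood at 5.53, 4.09, 0.372, 5.14 and 0.509 CPM in EpiSC, at 42.6 CPM in p53-KO EpiLC and 0.258 in wild-type EpiLC (4 counts), and at 283 CPM in haploid and 339 in diploid ESC. Tbx3 was thus above 4 CPM in haEpi1, haEpi5 and female EpiSC and below 1 CPM in diploid p53-KO and male EpiSC, and Klf2 put the same 3 libraries above the same 2. Prdm14 had 0, 3, 0, 1 and 0 counts in EpiSC, 72 counts (4.53 CPM) in p53-KO EpiLC and 1 count (0.0645 CPM) in wild-type EpiLC, and stood at 28.2 CPM in haploid and 50.9 in diploid ESC. A count of 0 allows up to 3 counts, or 0.151 CPM in haEpi1, 0.186 in diploid p53-KO and 0.170 in male EpiSC, counting error only. MEF held 41.6 CPM of Tbx3, 1.34 CPM of Tfcp2l1 and 0 counts of Zfp42 and Prdm14.

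**Figure D1:**
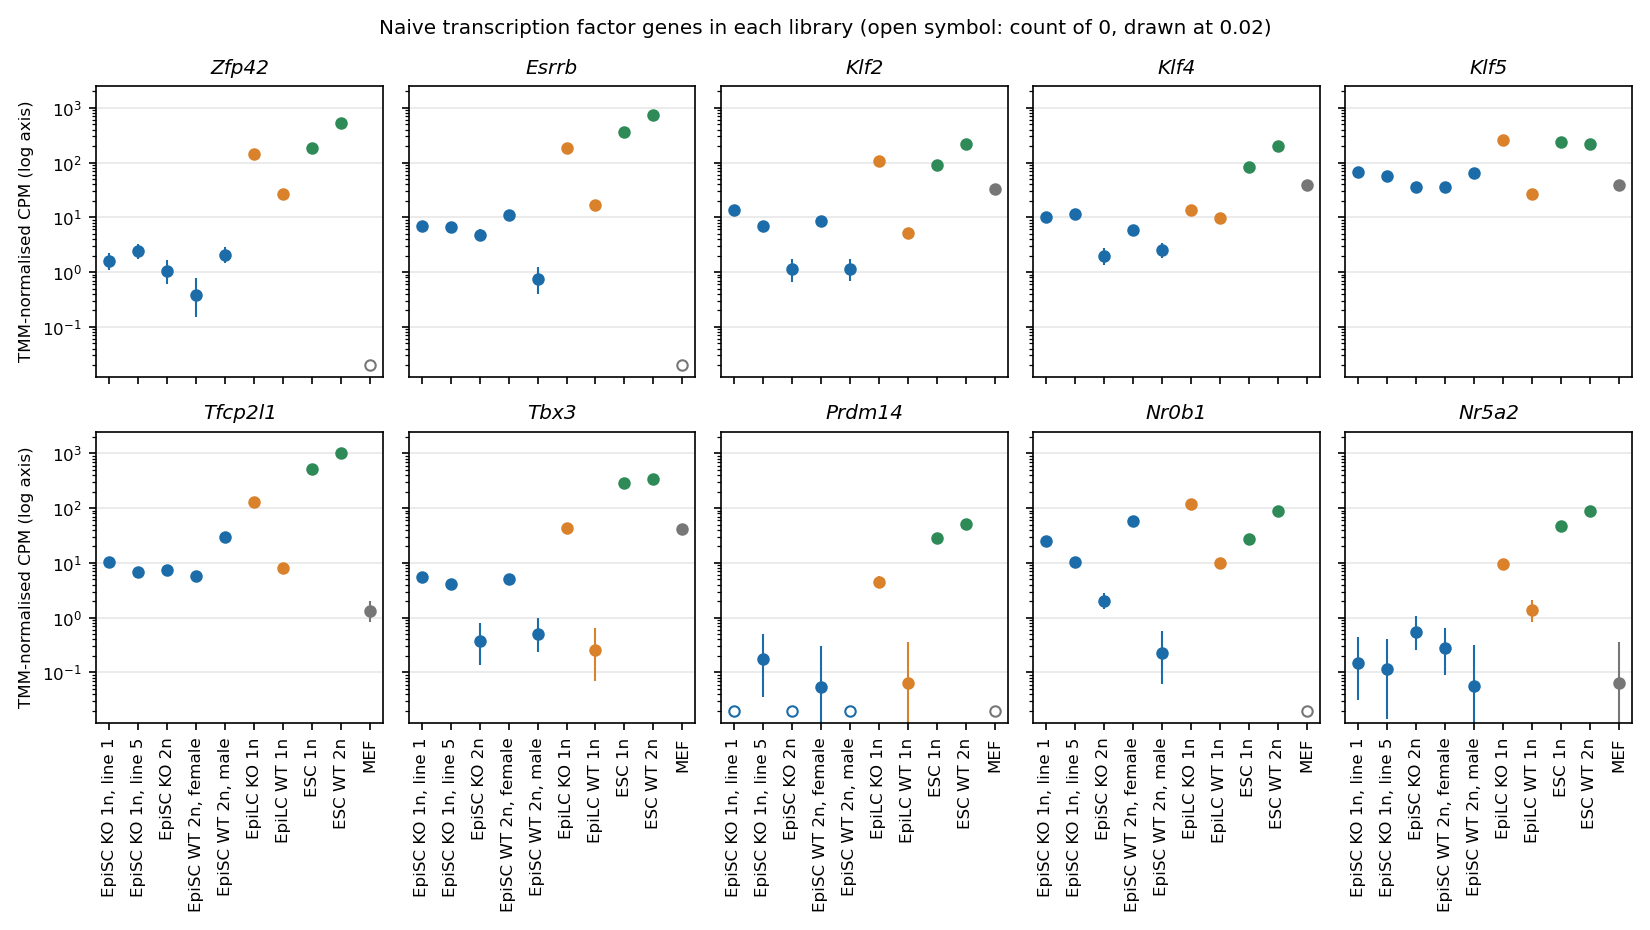
Level of each member in every library (TMM-normalised CPM, log axis), with libraries on the horizontal axis in the order EpiSC, EpiLC, ESC and MEF, KO for the p53-KO label, WT for wild type, 1n for haploid and 2n for diploid, and bars for the 95% Poisson interval. Open symbols are counts of 0; the diploid ESC library is the highest in each panel except for Klf5 and Nr0b1, where the p53-KO EpiLC library (258 and 121 CPM) is highest.

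Per transcript length, the order of the members changed between cell types. In FPKM, which divide the counts by gene length and by a constant for each library, the mean over the 5 EpiSC libraries was 10.4 ± 13 for Nr0b1 and 9.63 ± 2.79 for Klf5 (SD), followed by Klf2 at 3.29 ± 2.80, Klf4 at 2.03 ± 1.39, Tfcp2l1 at 1.24 ± 1.05 and Esrrb at 0.961 ± 0.596. Zfp42 had rank 7 at 0.776 ± 0.418 FPKM, before Tbx3 at 0.458 ± 0.368, with Nr5a2 at 0.0377 and Prdm14 at 0.0172. Every pair of neighbours in this EpiSC order overlapped between libraries. In EpiLC the mean FPKM put Zfp42 first at 44.3, then Nr0b1 at 35.6, Klf2 at 30.2 and Klf5 at 27.0, but these are means of 2 unlike libraries. In ESC the mean over 2 libraries was 193 ± 134 FPKM for Zfp42, 91.2 ± 44.2 for Esrrb, 83.3 ± 47.6 for Klf2 and 81.8 ± 38.3 for Tfcp2l1. The ranges of these 4 genes over the ESC libraries overlapped each other, but Zfp42 was the highest within each library (97.6 FPKM in haploid and 288 in diploid ESC). Then came Tbx3 at 47.5 ± 5.75, Klf4 at 46.7 ± 27.1, Klf5 at 44.5 ± 3.38, Nr0b1 at 32.5 ± 23.9, Prdm14 at 15.6 ± 6.25 and Nr5a2 at 11.7 ± 5.26 FPKM. The only neighbours in the ESC order whose libraries did not overlap were Tfcp2l1 (54.7 and 109 FPKM) and Tbx3 (43.4 and 51.5 FPKM). Zfp42, which led in ESC, was thus at rank 7 in EpiSC, and Nr0b1 and Klf5, at ranks 8 and 7 in ESC, were at the top in EpiSC. The first place of Nr0b1 rests on the female library (31.7 FPKM): without it, an alternative chosen after seeing the data, Nr0b1 averaged 5.09 FPKM and Klf5 10.3 FPKM.

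EpiSC were set against ESC to see how far each factor is lost in the primed state. Zfp42, Esrrb, Tfcp2l1, Tbx3, Prdm14 and Nr5a2 fell to 0.115% to 1.58% of their mean ESC level, in CPM, and Klf2 and Klf4 to 4.11% and 4.54%. Klf5 kept 22.6%. By edgeR's quasi-likelihood test with Benjamini-Hochberg adjustment over 21104 genes, 9 of the 10 members were lower, where 10.1% of all genes tested were lower. The median log2 fold change of the members was -6.28, against -0.02 over all genes. In these bulk libraries, fewer cells of a type and less RNA per cell cannot be told apart.

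Zfp42 averaged 1.51 ± 0.815 CPM in EpiSC (SD, n = 5) and 359 ± 251 CPM in ESC (n = 2), a log2 fold change of -7.92 ± 0.74 (SE) with an edgeR adjusted p of 0.00026. Nr5a2 averaged 0.231 ± 0.199 CPM in EpiSC and 68.6 ± 31.0 CPM in ESC, with a log2 fold change of -8.23 ± 0.80 (edgeR adjusted p = 0.0003). Prdm14 had 4 counts over the 5 EpiSC libraries, so its fitted log2 fold change of -9.60 ± 1.24 depends on how such counts are handled (edgeR adjusted p = 0.0013). In the fits of counts (edgeR and DESeq2) those 3 genes had the largest falls of the members. On log2(FPKM + 1), a scale that understates the change of low genes, the order differed, with -6.61 for Zfp42, -5.53 for Esrrb, -3.97 for Prdm14 and -3.55 for Nr5a2. Esrrb averaged 6 ± 3.70 CPM in EpiSC and 546 ± 267 CPM in ESC, and the log2 fold change was -6.54 ± 0.90 (edgeR adjusted p = 0.0017). Tfcp2l1 averaged 12.1 ± 10.3 and 765 ± 361 CPM in EpiSC and ESC, with a log2 fold change of -6.02 ± 0.89 (edgeR adjusted p = 0.00246). Tbx3 averaged 3.13 ± 2.51 and 311 ± 39.1 CPM, and its log2 fold change was -6.65 ± 1.25 (edgeR adjusted p = 0.00706). In the Krüppel-like group the falls were graded. Klf2 had a log2 fold change of -4.63 ± 1.04 (edgeR adjusted p = 0.0154), Klf4 of -4.49 ± 0.62 (adjusted p = 0.00174) and Klf5 of -2.17 ± 0.58 (adjusted p = 0.0308).

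Nr0b1 did not pass the test between EpiSC and ESC. It averaged 19.4 ± 24.2 CPM in EpiSC and 58.2 ± 42.9 CPM in ESC, and the log2 fold change was -1.63 ± 1.35 (edgeR adjusted p = 0.45). Its EpiSC libraries ran from 0.389% to 101% of the mean ESC level. It was also the only member whose EpiSC and ESC libraries overlapped, the other 9 being lower in every EpiSC library than in both ESC libraries, as were 19% of all genes tested. The Klf5 call is close to the threshold: it was lost when any EpiSC or ESC library other than the male EpiSC library was left out (adjusted p 0.0503 to 0.106) and by limma on log2(FPKM + 1) (0.0598). With libraries of wild-type label only, 2 members, Prdm14 and Nr5a2, passed, and the fold changes kept their direction. Far fewer genes passed in all in that fit than in the main one.

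EpiLC were set against ESC for the transient state. As a group, the 2 EpiLC libraries gave no member past the threshold. By edgeR 0 of 10 members were lower, where 0.109% of all genes tested were lower, and 7 of 10 had an unadjusted p under 0.05, as had 14.4% of all genes. DESeq2 called 3 of the 10 lower (Klf4, Tfcp2l1 and Nr5a2), limma on log2(FPKM + 1) called 4, and edgeR without the low-count filter called 6. Each of these settings also called more genes in all than the main fit, so the share above is not theirs. The median log2 fold change of the members was -2.97, against -0.05 over all genes.

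Klf4, the member on which the EpiLC libraries agreed best, averaged 11.6 ± 2.50 CPM in EpiLC and 141 ± 82.4 CPM in ESC (SD, n = 2 each), with a log2 fold change of -3.62 ± 0.85 (edgeR adjusted p = 0.114). Nr5a2 had a log2 fold change of -3.69 ± 0.93 (edgeR adjusted p = 0.134), Tfcp2l1 of -3.48 ± 1.17 (0.239), Prdm14 of -4.12 ± 1.34 (0.225) and Tbx3 of -3.88 ± 1.62 (0.323). Zfp42 gave -2.11 ± 0.84 (edgeR adjusted p = 0.304) and Esrrb -2.46 ± 1.10 (0.347). For these 7 genes both EpiLC libraries were below both ESC libraries, as for 20.6% of all genes tested. Klf2 (-1.45 ± 1.31, edgeR adjusted p = 0.645), Klf5 (-0.70 ± 0.74, 0.701) and Nr0b1 (0.14 ± 1.71, 0.982) overlapped with ESC. Without the p53-KO EpiLC library, Klf5 and Prdm14 passed, with log2 fold changes of -3.10 and -9.13 (edgeR adjusted p = 0.0354 and 0.0451). That fit holds 1 EpiLC library, assumed to vary like the other groups, and Prdm14 had 1 count in it.

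EpiSC were set against EpiLC to see what remained to be lost. Zfp42, Esrrb, Prdm14 and Nr5a2 were lower in EpiSC, 4 of the 10 members, where 5.88% of all genes tested were lower by edgeR, and none of them was higher, where 3.77% were. Zfp42 averaged 1.51 ± 0.815 CPM in EpiSC (SD, n = 5) and 84.6 ± 81.9 CPM in EpiLC (n = 2), with a log2 fold change of -5.81 ± 0.70 (edgeR adjusted p = 0.00174). Nr5a2 gave -4.54 ± 0.76 (edgeR adjusted p = 0.00772), Esrrb -4.08 ± 0.84 (0.0174) and Prdm14 -5.47 ± 1.23 (0.0243). The Krüppel-like genes did not pass: Klf2 gave -3.18 ± 1.02 (edgeR adjusted p = 0.078), Klf5 -1.47 ± 0.59 (0.139) and Klf4 -0.88 ± 0.63 (0.397). Neither did Tfcp2l1 at -2.54 ± 0.84 (edgeR adjusted p = 0.0847), Tbx3 at -2.77 ± 1.17 (0.156) and Nr0b1 at -1.77 ± 1.35 (0.423). DESeq2 called 6 members, adding Klf2 (adjusted p = 0.0138) and Tfcp2l1 (0.0209), and more genes in all than edgeR. With p53 label and ploidy as covariates, edgeR called 3 members and fewer genes in all, and Esrrb did not pass (adjusted p = 0.0532). Zfp42, Esrrb and Nr5a2 were lower in every EpiSC library than in both EpiLC libraries, as were 17% of all genes tested. The 3 comparisons share libraries and are not independent of each other. The result moved with the EpiLC library used. When the p53-KO library was dropped, the sign turned for Klf2, Klf5, Tfcp2l1, Tbx3 and Nr0b1. When the wild-type library was dropped, the log2 fold changes were -4.11 for Klf2, -2.32 for Klf5, -3.44 for Tfcp2l1 and -3.76 for Tbx3. Either fit sets EpiSC against 1 EpiLC library, so these values are not replicated on the EpiLC side. Leaving out both haploid p53-KO EpiSC libraries, a setting chosen after seeing the data, left 1 member past the threshold and fewer genes in all. The Prdm14 call was lost without haEpi1, the female or the diploid p53-KO EpiSC library (edgeR adjusted p 0.052 to 0.0553), and Tfcp2l1 passed without the male one (0.0416).

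**Figure D2:**
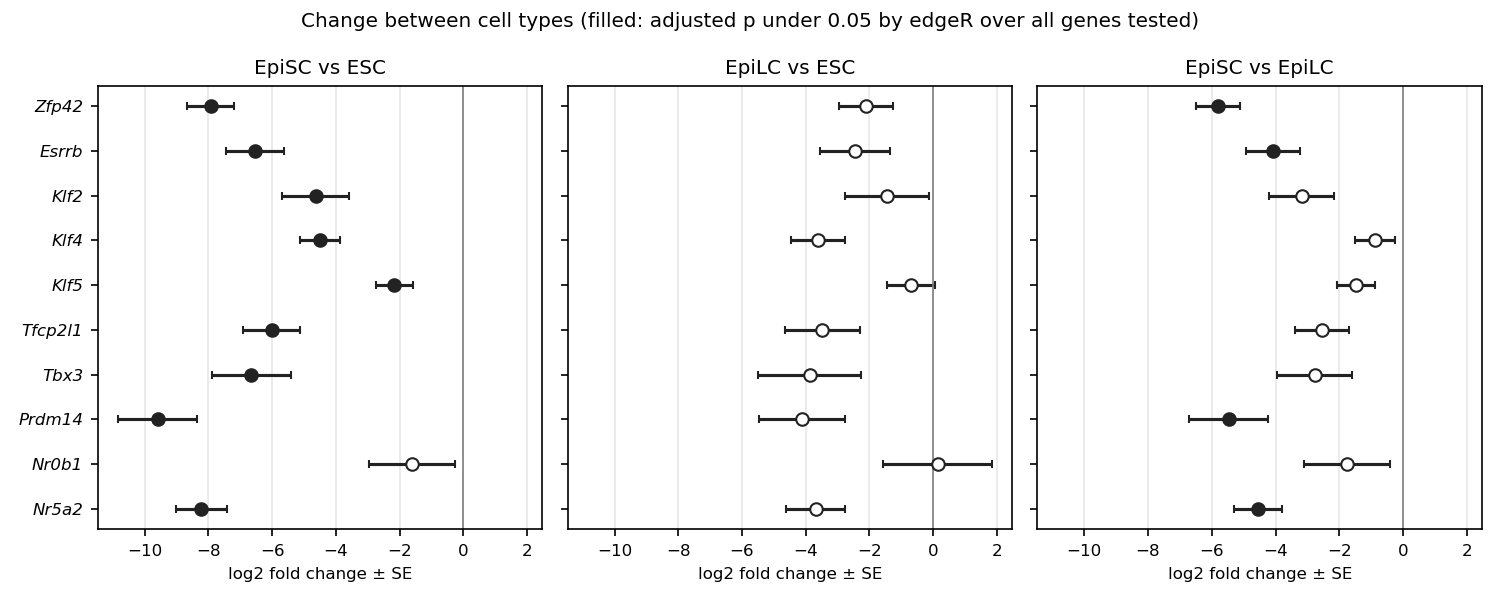
The log2 fold change of each member (points, with SE) in EpiSC against ESC, EpiLC against ESC and EpiSC against EpiLC, filled where the edgeR adjusted p was under 0.05. All points but Nr0b1 are filled in the left panel (-9.60 to -2.17), none in the middle panel, and Zfp42, Esrrb, Prdm14 and Nr5a2 in the right panel.

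The single EpiLC libraries were then placed between the 2 stable states, as a description with 1 library per label and no test. The p53-KO EpiLC library held Klf2, Klf5 and Nr0b1 at 71.2%, 113% and 208% of the mean ESC level in CPM, at or above the lower ESC library. Its other 7 members lay between EpiSC and ESC, from Zfp42 at 39.7% and Esrrb at 34.0%, through Tfcp2l1 at 17.2%, Nr5a2 at 13.8%, Tbx3 at 13.7% and Prdm14 at 11.5%, to Klf4 at 9.51%. In the wild-type EpiLC library Klf2, Klf4, Tfcp2l1, Prdm14 and Nr0b1 lay within the range of the EpiSC libraries, at 3.39%, 7%, 1.06%, 0.163% and 17.1% of the mean ESC level. Klf5 and Tbx3 lay below every EpiSC library, at 11.8% and 0.083%, although the 4 counts of Tbx3 give an interval (0.0703 to 0.661 CPM) that reaches the lowest EpiSC libraries. Zfp42, Esrrb and Nr5a2 stayed above the EpiSC range, at 7.42%, 3.08% and 1.98%. Zfp42 in that library was 17.6 times its EpiSC mean, the largest such ratio of the members.

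Taking the distance from the mean ESC to the mean EpiSC level, in log2 CPM with a prior count of 2, as the full fall, the p53-KO EpiLC library had covered a median of 28.7% over the 10 members (-43.8% for Nr0b1 to 70.3% for Klf4). The wild-type EpiLC library had covered a median of 86.6%, from 45.5% for Zfp42 to 140% for Klf5. Over the 2126 genes that were lower in EpiSC than in ESC by edgeR, which hold the members other than Nr0b1, the median was 23.3% for the p53-KO EpiLC library, against 56.8% for the wild-type one. Klf4 was furthest along in the p53-KO EpiLC library and Zfp42 least far in the wild-type EpiLC library.

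**Figure D3:**
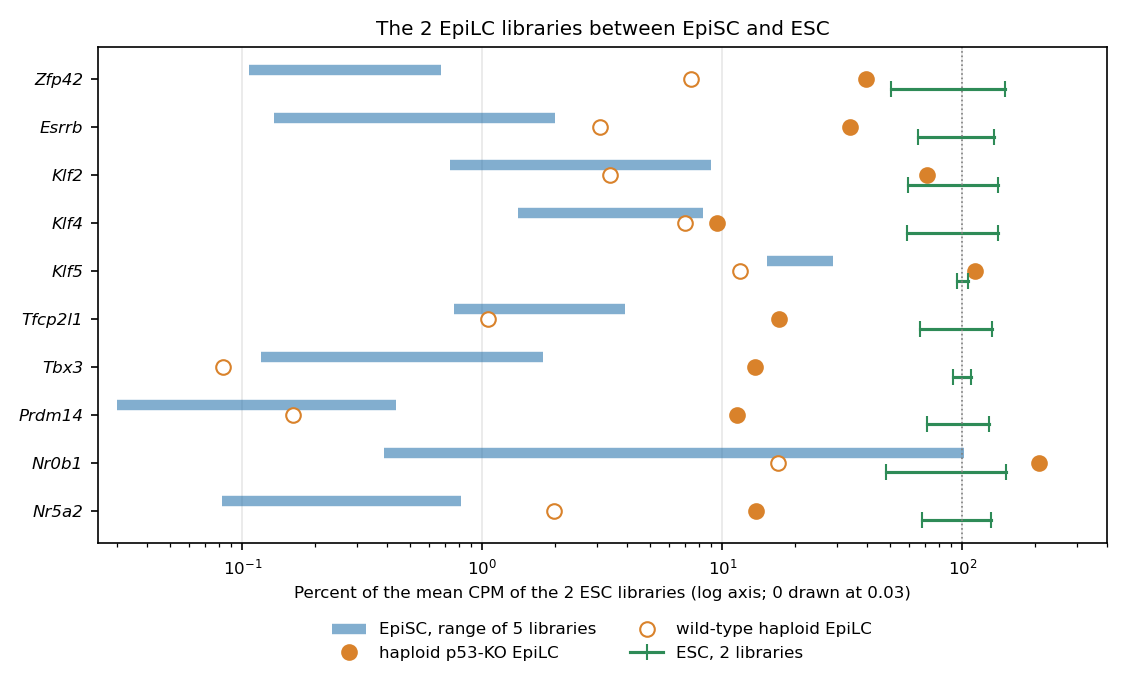
Position of the EpiLC libraries for each member, as percent of the mean CPM of the 2 ESC libraries (log axis; 0 drawn at 0.03). Bars are the range of the 5 EpiSC libraries, filled circles the p53-KO EpiLC library, open circles the wild-type EpiLC library and capped lines the 2 ESC libraries; the open circle is left of the filled circle for every member, closest for Klf4 (9.51% and 7%).

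Side by side, the p53-KO EpiLC library held more of every member than the wild-type EpiLC library, and Klf4 was the member with the smallest difference. Of the 9 members that reached 100 counts in either library, 8 were at least 2-fold higher in the p53-KO library, where 11.2% of the 11179 genes with such counts were. Their median log2 ratio was 3.45, against -0.03 over all those genes. The ratios, with 95% intervals that cover counting error only, were 165 for Tbx3 (64.2 to 608, from 677 and 4 counts), 21.0 for Klf2 (16.8 to 26.6) and 16.3 for Tfcp2l1 (13.6 to 19.7). Nr0b1 was 12.2 times as high in the p53-KO library (10.3 to 14.4), Esrrb 11 times (9.71 to 12.6) and Klf5 9.52 times (8.61 to 10.5). Nr5a2 was 6.97 times as high (4.4 to 11.6), Zfp42 5.35 times (4.81 to 5.95) and Klf4 1.36 times (1.10 to 1.68). Prdm14, below the count minimum, had 72 and 1 counts in the p53-KO and wild-type libraries, a ratio of 70.2 (12.2 to 2812). Other RNA also differed between these 2 libraries. In the p53-KO and wild-type EpiLC libraries, the 7 post-implantation epiblast markers summed to 1135 and 4031 CPM, the 12 fibroblast markers to 118 and 41.5 CPM, 8 trophoblast markers to 86.7 and 14.1 CPM and 8 markers of 2-cell-like cells to 12.8 and 4.52 CPM. The medians of the 7 epiblast markers were 63.8 and 156 CPM. With 1 library each, label, Y-linked RNA and these markers cannot be told apart.

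Other genes of the same network were read in this pair from lists of known members. Of 12 other naive network genes, 10 had at least 100 counts, of which 7 were at least 2-fold higher in the p53-KO library and 1 lower, where 11.2% of all genes were higher and 6.67% lower. Fbxo15, an F-box gene of pluripotent cells, was 9.96 times as high in the p53-KO library (72.0 and 7.23 CPM). Tcl1, a coactivator of Akt kinases, was 8.15 times as high, Tet2, a methylcytosine dioxygenase, 7.76 times and Dppa3, a maternal-effect protein, 7.38 times. Gbx2, a homeobox factor downstream of STAT3 named as the 1 lower gene after its values were seen, had 9.38 CPM in the p53-KO library and 35.4 CPM in the wild-type library. Of the 9 genes of the LIF-STAT3 pathway 4 were at least 2-fold higher and none lower. Stat3 was at 188 CPM in the p53-KO library and 27.9 CPM in the wild-type library, a ratio of 6.72. The feedback inhibitor Socs3 gave a ratio of 4.45, the shared receptor chain Il6st 3.13 and the kinase Jak2 2.18. Of 12 regulators of the exit from naive pluripotency, 2 were at least 2-fold higher (Fnip1, a partner of folliculin, ratio 3.08, and Rbpj, the Notch effector, 2.57), a share near that of all genes. In the same list 2 were lower, Foxd3 (0.346) and Zic2 (0.355), both transcription factors of the epiblast. Of 33 paralogues of the members, 22 had the counts, 9 were higher and 2 lower. Prdm1 (ratio 8.88), Grhl3 (5.71), Klf10 (3.34) and Klf6 (3.11) led the higher ones. The list medians were 2.24 for the naive network, 0.98 for the LIF-STAT3 pathway, -0.04 for the exit regulators and 0.29 for the paralogues, in log2.

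**Figure D4:**
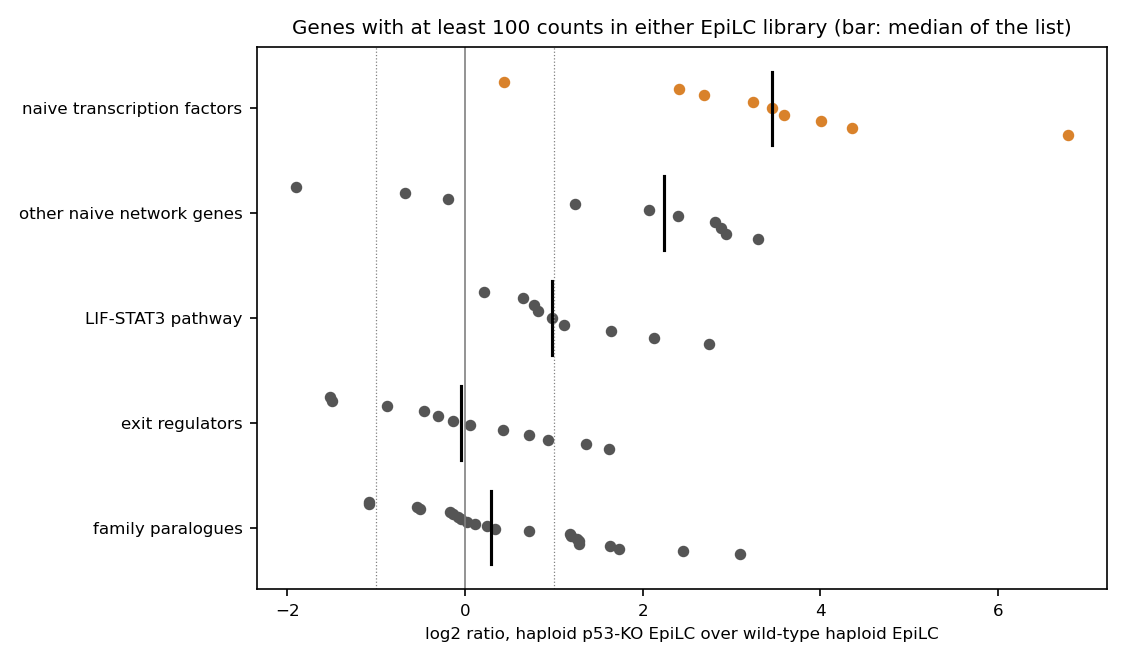
The log2 ratio of the p53-KO over the wild-type EpiLC library for genes with at least 100 counts in either (points), by list, with the median of each list as a black bar and dotted lines at 2-fold. The naive transcription factors all lie right of 0 with a median of 3.45, and the exit regulators scatter around a median of -0.04.

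Whether the p53 label moved with these genes in EpiLC otherwise than in diploid EpiSC was tested with an interaction term over the 9 pluripotent libraries, in which groups of 1 library are assumed to vary like the others. The term was positive for all 10 members and passed the threshold for none, as for 0% of 20583 genes by edgeR. It had an unadjusted p under 0.05 for 5 of 10 members and 7.67% of all genes. The values were 10.24 ± 1.99 for Tbx3 (log2 ± SE, edgeR adjusted p = 0.218), 6.51 ± 1.65 for Klf2 (0.386), 5.33 ± 1.35 for Tfcp2l1 (0.387) and 3.78 ± 0.63 for Klf5 (0.152). DESeq2 called 2 members, Klf5 and Tbx3 (334 genes in all), and edgeR without the low-count filter called 7 (549 genes). The outcome of this test therefore depends on the tool and the filter. The EpiLC pair is labelled haploid and these EpiSC libraries diploid, so cell type and ploidy label cannot be told apart in the term. Y-linked RNA also differs: Ddx3y was at 0.63 and 46.1 CPM in p53-KO and wild-type EpiLC. In diploid EpiSC it was at 117 CPM with the p53-KO label, 5.74 in female and 94.2 in male wild type. The term is therefore not an effect of the p53 label alone. None of the listed network genes passed, where 0% of all genes did. Those with the smallest p were Jam2 (5.91 ± 1.70, edgeR adjusted p = 0.448) and Fbxo15 (4.37 ± 1.43, 0.524), Stat3 (3.20 ± 0.68, 0.256) and Il6st (1.70 ± 0.45, 0.404), Fnip1 (1.65 ± 0.50, 0.47) and Zic2 (-1.02 ± 0.43, 0.647), and the paralogues Grhl3 (3.79 ± 0.81, 0.265) and Prdm16 (5.33 ± 1.43, 0.412).

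Within EpiSC, no member separated the haploid p53-KO from the diploid wild-type label beyond the spread between libraries. The 2 libraries of the haploid p53-KO label and the 2 of the diploid wild-type label were compared in a fit of the 5 EpiSC libraries, in which 8 members passed the low-count filter and Prdm14 and Nr5a2 did not. No member passed the threshold by edgeR, as for 0% of 18153 genes, and 1 had an unadjusted p under 0.05 (3.53% of all genes). That gene was Klf4, at 10.9 ± 1.17 CPM in the haploid p53-KO libraries and 4.14 ± 2.34 CPM in the wild-type libraries (SD, n = 2 each), with an edgeR adjusted p of 0.976. DESeq2 called no member and 22 genes in all. Klf5 averaged 61.4 ± 6.92 and 50.5 ± 19.8 CPM in the haploid p53-KO and wild-type libraries, Esrrb 6.75 ± 0.181 and 5.84 ± 7.22 CPM, and Nr0b1 17.9 ± 10.4 and 29.6 ± 41.5 CPM. The female and male libraries thus lay on either side of the haploid libraries for Esrrb and Nr0b1. Without the female library, Nr0b1 passed as higher in the haploid p53-KO libraries, with a log2 fold change of 6.28 (edgeR adjusted p = 0.0262) and 144 genes called in all. That fit holds 1 wild-type library (male, 4 counts of Nr0b1), assumed to vary like the other groups. None of the listed network genes passed either; those with the smallest p were Bmp4 (0.61 ± 0.52) and Pecam1 (0.71 ± 0.68), Jak2 (0.80 ± 0.31) and Jak1 (0.43 ± 0.23), Otx2 (-1.01 ± 0.33) and Zic2 (-0.66 ± 0.23), and Tbx20 (2.82 ± 0.92) and Tfcp2 (-0.51 ± 0.31), each with an edgeR adjusted p of 0.976.

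The 12 fibroblast markers, all above 3 counts in each EpiSC library, summed there to 0.636% (male) to 2.68% (haEpi5) of the MEF sum, and Klf2, Klf4, Klf5 and Tbx3, which MEF also express, were set beside that share. The share depends on the use of sums. In diploid p53-KO EpiSC the markers summed to 1186 CPM with a median of 13.6 CPM, and in male EpiSC to 418 CPM with a median of 17 CPM, so the 2 measures rank these libraries in opposite order. In haEpi5 that share of the MEF level would be 1.03 CPM of Klf4, where 11.7 CPM was measured. In diploid p53-KO EpiSC it would be 0.594 CPM of Klf2 and 0.751 CPM of Tbx3, where 1.12 and 0.372 CPM were measured. The 6 counts of Tbx3 there have a 95% interval of 0.137 to 0.81 CPM, which holds the level the share would give. Every other EpiSC level of Klf2, Klf4, Klf5 and Tbx3 was above that of the share. For Tbx3 in male EpiSC, however, the 95% interval of its 9 counts (0.233 to 0.967 CPM) holds the 0.265 CPM of the share.

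Within ESC, the haploid library held less of most members than the diploid library. At least 2-fold lower were 6 of the 10, beside 8.32% of the 11770 genes that reached 100 counts in either. Their median log2 ratio was -1.02, against -0.03 over all those genes. The ratio of haploid over diploid ESC was 0.314 for Nr0b1, 0.337 for Zfp42, 0.415 for Klf4, 0.422 for Klf2, 0.486 for Esrrb and 0.499 for Tfcp2l1. Tfcp2l1 lies at the 2-fold limit and fell short of it under relative-log-expression normalisation (log2 ratio -0.98) and in FPKM with 0.1 added (-0.99), which left 5 members. The ratio was 0.515 for Nr5a2, 0.554 for Prdm14 and 0.837 for Tbx3, and Klf5 was at 1.11. Klf5 and Tbx3 were thus the members nearest to equal levels. Of the 9 LIF-STAT3 genes 3 were at least 2-fold higher in the haploid library, Socs3 with a ratio of 2.48, Jak1 with 2.39 and Jak2 with 2.28, where 13.6% of all genes were higher. Of the 12 other naive network genes 6 were at least 2-fold lower, with Sox15 (0.225), Jam2 (0.292) and Tcl1 (0.299) the lowest, and 2 were higher, with Bmp4 (3.66) the highest. Foxd3 (0.228) was the 1 exit regulator of 12 past 2-fold. Of the 23 paralogues with the counts 3 were higher and 2 lower, with Grhl2 (10.8), Klf6 (4.57) and Prdm1 (0.421) among them. The haploid ESC library also had more RNA of the 12 fibroblast markers (1028 and 21.1 CPM in haploid and diploid ESC), of 8 markers of 2-cell-like cells (93.2 and 11.8 CPM), of 10 extraembryonic endoderm markers (50.8 and 11.8 CPM) and of 8 trophoblast markers (176 and 108 CPM), and less Trp53 (28.5 and 375 CPM), though both carry a wild-type label. Their part in the differences was not tested, and each ESC label has 1 library.

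The rest of the network was followed across the cell types with the same lists, which were chosen with earlier results of these data known. In EpiSC against ESC, 10 of 12 other naive network genes were lower by edgeR, where 10.1% of all genes were, and none higher. Dppa5a, an RNA-binding protein of ESC, averaged 0.813 ± 0.601 CPM in EpiSC and 712 ± 406 CPM in ESC, with a log2 fold change of -9.80 ± 0.62 (edgeR adjusted p = 5.22e-05). Tcl1 gave -9.28 ± 1.05 (edgeR adjusted p = 0.000724), Dppa3 -6.91 ± 0.91 (0.0014) and the adhesion gene Pecam1 -6.05 ± 0.80 (0.00141). Of the 9 LIF-STAT3 genes 3 were lower, the LIF receptor chain Lifr at -4.03 ± 0.63 (edgeR adjusted p = 0.00323), Socs3 at -2.92 ± 0.50 (0.00489) and the kinase gene Pim1 at -1.48 ± 0.30 (0.0107). Of 12 exit regulators 2 were higher, where 6.86% of all genes were, namely Zic2 at 2.67 ± 0.45 (edgeR adjusted p = 0.00442) and Otx2, a homeobox factor of the epiblast, at 2.31 ± 0.44 (0.00749). Of 33 paralogues 30 were tested and 5 were lower, near the share of all genes, with Prdm16 (-3.37 ± 0.71, edgeR adjusted p = 0.012), Grhl3 (-3.09 ± 0.58, 0.00729), Klf8 (-2.90 ± 0.41, 0.0021) and Klf15 (-2.40 ± 0.36, 0.00263) the largest. The list medians were -4.75, -0.47, -0.19 and -0.17 in log2 for the naive network, LIF-STAT3, exit and paralogue lists.

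In EpiLC against ESC, Otx2 passed among these lists, with 116 ± 26.1 CPM in EpiLC and 13.2 ± 4.66 CPM in ESC and a log2 fold change of 3.14 ± 0.50 (edgeR adjusted p = 0.0345), where 0.317% of all genes were higher. Of the other naive network genes, Nanog gave -3.23 ± 0.68 (edgeR adjusted p = 0.0833) and the adhesion gene Jam2 -5.98 ± 1.32 (0.0946). Among the LIF-STAT3 genes, Socs3 gave -3.34 ± 0.71 (edgeR adjusted p = 0.0842) and Il6st -1.06 ± 0.43 (0.307), and among the paralogues Klf3 gave -1.07 ± 0.32 (0.187) and Grhl2 2.32 ± 0.77 (0.233). Dppa5a stood at 739 ± 67.7 CPM in EpiLC and 712 ± 406 CPM in ESC. In EpiSC against EpiLC, 5 of 12 naive network genes were lower, where 5.88% of all genes were, led by Dppa5a at -9.83 ± 0.62 (edgeR adjusted p = 5.73e-05), Dppa3 at -6.86 ± 0.91 (0.00286), Tcl1 at -6.60 ± 1.02 (0.00581) and Pecam1 at -4.84 ± 0.78 (0.00662). Lifr (-2.63 ± 0.63, edgeR adjusted p = 0.0298) and Pim1 (-1.39 ± 0.30, 0.0219) were lower among the LIF-STAT3 genes. The ERK-responsive factor Etv5 (-1.38 ± 0.25, edgeR adjusted p = 0.0108) and Zfp281 (-0.72 ± 0.17, 0.0297) were lower among the exit regulators. Of 30 paralogues tested 4 were lower beside that 5.88% of all genes, Klf15 at -2.10 ± 0.36 (edgeR adjusted p = 0.00903), Klf9 at -1.70 ± 0.41 (0.0315), Grhl1 at -1.38 ± 0.36 (0.0417) and Klf10 at -1.35 ± 0.34 (0.0365).

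Across the 9 pluripotent libraries, the members ran together to different degrees. The correlation of a member's log2 CPM with the mean of the other 9 was highest for Prdm14 (Pearson r = 0.974) and lowest for Nr0b1 (r = 0.66). The closest pair was Nr5a2 and Prdm14 (r = 0.96), and the least alike was Nr0b1 and Tfcp2l1 (r = 0.399). The points share libraries and fall into 3 cell types, so these values are a description. Other genes were searched among the 10704 protein-coding ones with a mean of at least 5 CPM in ESC, where the members are high. Those most like the mean of the members were Mypn (r = 0.99), Gss (0.98), Gsta3 (0.978), Wscd2 (0.977), Pde8a (0.97) and Gm13128 (0.97). Gss, the glutathione synthetase gene, averaged 26.1 CPM in EpiSC, was at 69.1 CPM in p53-KO EpiLC and 22.4 CPM in wild-type EpiLC, and at 93.1 CPM in haploid and 113 CPM in diploid ESC. Mypn, a muscle sarcomere gene, averaged 0.13 CPM in EpiSC, was at 5.67 and 0.323 CPM in p53-KO and wild-type EpiLC, and at 10.2 and 12.8 CPM in haploid and diploid ESC.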

How the data were processed

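Gene counts and FPKM of 10 libraries were deposited by the authors. Per the submitters' processing notes, reads were aligned to mm10 with HISAT2 2.0.5 and the counts made with featureCounts 1.5.0-p3; no source used here gives the strand setting. The deposited FPKM equal the deposited counts divided by gene length and 1 constant per library (largest relative deviation 1.7e-08). Here, edgeR 4.0.16 under R 4.3.3 was run on the counts (filterByExpr, TMM, quasi-likelihood F test, Benjamini-Hochberg over all genes tested, threshold 0.05), with 1 mean per cell type over all 10 libraries or 1 mean per labelled group. A standard error is the size of the log2 fold change over √F. Alternatives were DESeq2 1.42.0, and limma 3.58.1 with a trend after log2(FPKM + 1), keeping genes that reach 1 FPKM. On simulated data only the edgeR fit of EpiSC against ESC was tried, with the same spread set for every gene. The other fits were not tried in that way. Single pairs were not tested; a call there needed a 2-fold ratio with a prior count of 2 and at least 100 counts in either library. Libraries of the same label differed beyond sampling noise (chi-square per degree of freedom, scaled by total counts, 82.3 in haploid p53-KO and 78.0 in wild-type EpiSC). The former are lines haEpi1 and haEpi5 and the latter are titled fema and male, so these values also hold differences of line or sex. The members and lists were chosen with earlier results of these data known. Named genes were the members, up to 4 genes of each list past the threshold with the largest change (otherwise up to 2 with the smallest p), and the 6 genes most like the members; a listed gene that is not reported here stays in the counts.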

Additional observations from a re-analysis of the deposited data

Results flagged for a closer look

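Tfcp2l1 stood at 30.2 CPM in the male wild-type EpiSC library, and the others of its cell type lay between 5.80 and 10.5 CPM. On the CPM scale its gap to the nearest of them was 0.807 of the whole range, past Dixon's critical value of 0.71 for a group of this size. The ratio was not taken on log2 values. Chance flags about 1 in 20 groups, and all 10 members were screened, so a single flag may be chance. Tfcp2l1 was the only member so marked among the EpiSC libraries. MEF was part of the fits of the cell types but on neither side of a tested comparison. It held 32.9 CPM of Klf2, 38.5 of Klf4, 39.1 of Klf5, 41.6 of Tbx3 and 1.34 of Tfcp2l1. Each is above what a count of 0 allows. In MEF these genes stood at 18.5 FPKM for Klf2, 13.1 for Klf4, 7.80 for Klf5, 6.52 for Tbx3 and 0.147 for Tfcp2l1.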

How the results depend on the processing

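Between EpiSC and ESC all 10 members kept their direction under every alternative tried; 3573 genes were called, against 2243 with p53 label and ploidy as covariates, 140 with wild-type-labelled libraries only (2 members) and 1553 without both haploid p53-KO EpiSC libraries. Leaving out 1 library at a time gave 1626 (without diploid ESC) to 3009 genes and 7 to 9 members; Klf2 was lost without diploid ESC (adjusted p = 0.0909). Between EpiLC and ESC, 90 genes were called, against 676 with no low-count filter (6 members), 960 by DESeq2 (3), 310 by limma on log2(FPKM + 1) (4), 246 with a pseudocount of 0.1 (1), 658 by limma with no low-value filter (2), 29 with covariates, 0 with wild-type-labelled libraries only, and 1 to 216 with 1 library left out (0 to 2 members). Nr0b1 (0.14) turned to -0.477 by limma with or without the filter, -0.542 with the smaller pseudocount and -2.53 with wild-type-labelled libraries; its values with 1 library left out are -2.57 to 1.21, and those of Klf5 -3.10 to 0.15. Between EpiSC and EpiLC, 2036 genes were called, against 3162 with no filter (8 members), 3616 by DESeq2 (6), 1260 by limma with no filter (1), 1279 with covariates (3), 0 with wild-type-labelled libraries only (0 members) and 418 without both haploid p53-KO EpiSC libraries (1). Limma called 1 member, and 2 with the smaller pseudocount. Leaving out 1 library gave 554 to 1555 genes and 1 to 8 members; the log2 fold changes then ran from -4.11 to 0.28 for Klf2, -2.32 to 0.93 for Klf5, -3.44 to 0.58 for Tfcp2l1, -3.76 to 3.57 for Tbx3 and -2.79 to 0.96 for Nr0b1, the positive ends being those lacking the p53-KO EpiLC sample. Restricted to wild-type labels they turned to 0.87 for Klf5, 1.13 for Tfcp2l1, 3.40 for Tbx3 and 1.55 for Nr0b1.

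Between haploid p53-KO and wild-type EpiSC, 0 genes were called, against 136 with no filter, 22 by DESeq2 and 0 to 144 with 1 library left out (0 to 1 members). Nr0b1 turned to 0.70 by limma with or without the filter and 1.74 with the smaller pseudocount; with 1 library left out the log2 fold changes ran from -0.048 to 2.36 for Zfp42, -0.71 to 3.20 for Esrrb, -0.061 to 0.74 for Klf5, -1.80 to 0.56 for Tfcp2l1, -0.11 to 3.23 for Tbx3 and -1.73 to 6.28 for Nr0b1. The interaction gave 0 genes, against 549 with no filter (7 members), 334 by DESeq2 (2) and 286 to 309 without either wild-type EpiSC library (5 to 6 members, with 1 library in each of the 4 groups of the contrast and the spread taken from the other EpiSC, so no check by replicates), an alternative chosen after seeing the data, as was leaving out both haploid p53-KO EpiSC libraries; Nr5a2 then ran from -0.39 to 1.79. A count minimum of 10 moved the EpiLC pair to 4594 genes from 1998 and the ESC pair to 5899 from 2583, through its wider set of genes. The cause of the other changes was not tested. No paired analysis was possible because no groups with shared replicate numbers of the same animals or batches stand behind these comparisons. Fits that leave a group with 1 library assume it varies like the other groups. Depth limits Prdm14, Nr5a2, Tbx3, Zfp42 and Nr0b1, which had under 10 counts in at least 1 pluripotent library.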
